A study of Bos taurus with 8 samples.

Results

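Fibroblast growth factor (FGF) ligands and FGF receptors were examined in mural granulosa cells (GC), the cell layer that lines the follicle on the inner side of its basement membrane. The set comprised 6 ligands (FGF1, FGF2, FGF7, FGF9, FGF10 and FGF18) and 4 receptors (FGFR1, FGFR2, FGFR3 and FGFR4). The members were selected by gene symbol, with earlier results of these data known. Each of the 10 symbols was carried by exactly 1 of the 26773 transcript clusters on the array. A transcript cluster is the group of probes that is summarized to a single signal for a transcript.

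The GC were collected from the dominant follicle of 8 German Holstein cows in lactation, with 1 array per cow. In the heat stress group (HS, n = 4) the climate chamber was set to 28°C and 52% relative humidity (temperature humidity index 76). In the pair-fed group (PF, n = 4) it was set to 15°C and 64% relative humidity (temperature humidity index 60), and feed was restricted to the intake of the HS cows. By the deposited labels the cows of both groups stayed in the chamber for 96 h. All cows, controls included, received 500 µg of prostaglandin F2α 72 h before slaughter and, 49 h after it, 100 µg of a GnRH analog to trigger the LH surge, so that every follicle was sampled 23 h after GnRH and before ovulation. No thermoneutral group with free access to feed was analysed here. The cells had been scraped from the peeled follicle wall, so other cells of the wall can contribute RNA.

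FGFs are secreted signals that bind receptor tyrosine kinases together with heparan sulfate chains of proteoglycans. The activated receptor phosphorylates the docking protein FRS2, which recruits GRB2 and SOS and opens the RAS and MAP kinase cascade, and Sprouty proteins and the phosphatase DUSP6 dampen that cascade. In the ovary FGFs act between layers. FGF7 and FGF10 are typically made by stromal and theca cells and bind an isoform of FGFR2 found on epithelia, whereas FGF9 is also made by GC in cattle and FGF2 is a classical angiogenic factor.

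The deposited signals are log2 values of the robust multichip average (RMA), so a difference of 1 means a doubling, and because probes differ, the signal of a gene does not give its level relative to another gene. Array medians lay between 5.27 and 5.37 in HS and between 5.33 and 5.44 in PF. HS was compared with PF by limma, and the study's thresholds were applied, that is, an absolute fold change above 1.5 (0.58 on the log2 scale) and an unadjusted p under 0.05. They were met by 591 of all clusters (423 higher and 168 lower in HS), and none reached an adjusted p under 0.05 (smallest 0.600, limma), whereas 1928 had an unadjusted p under 0.05. Of 9 GC markers, FOXL2 and FSHR were present on all arrays (6.68 to 8.25 and 7.09 to 8.88). Another, CYP19A1, was at 10.6 in HS replicate 4 and between 4.42 and 6.92 on the other arrays. The mean of 6 oocyte markers was between 3.82 and 4.08. Fibroblast and endothelial markers were also measured on every array and varied widely, as given below. PF replicate 3 was the lowest array for 7 of 11 genes that the LH surge induces, and the mean of these 11 was 5.71 there and 7.78 to 8.68 on the other arrays. PTGS2, one of them, was at 3.46 in PF replicate 3 and at 10.03 or more on the others.

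Transcripts of the FGF members were mostly lower in HS than in PF. The mean was lower in HS for 8 of the 10 members and higher for FGF9 and FGFR4, against 54% of all clusters with a lower mean in HS. The median log2 fold change of the members was -0.38, and that of all clusters was -0.02. Of the 10 members, 1 met the study's thresholds, FGF1, which was lower in HS, while 2.21% of all clusters met them and 0.627% did so in that direction. No member reached an adjusted p under 0.05 in limma (smallest 0.683), and FGF1 was also the only 1 of the 10 with an unadjusted p under 0.05. The limma count of members past the thresholds depended on single arrays. It was 0 when HS replicate 1, 2 or 4 or PF replicate 1 was left out. It was 2 without HS replicate 3 or PF replicate 2 (FGF1 and FGFR1) or without PF replicate 4 (FGF1 and FGF2). Without PF replicate 3 it was again 1, but the gene was FGF2.

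**Figure D1:**
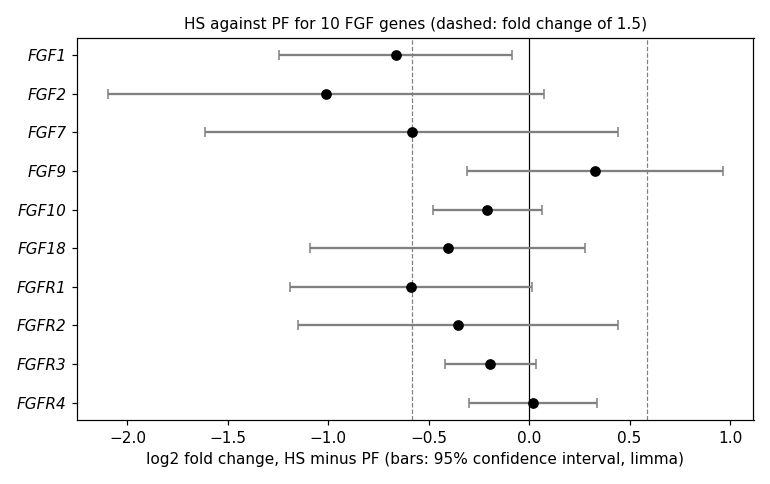
The log2 fold change of HS over PF (x axis) is shown for the 10 FGF members, with points for the limma estimate, bars for its 95% confidence interval and dashed lines at a fold change of 1.5. The interval of FGF1 lies below 0, and those of the other 9 members include 0.

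Among the ligands, FGF1, which can bind every FGF receptor, gave the smallest p. Its log2 signal was 5.37, 4.19, 4.87 and 4.50 in PF replicates 1 to 4 and 3.78, 4.02, 4.42 and 4.04 in HS replicates 1 to 4. PF replicate 1 was the highest and HS replicate 1 the lowest, and the groups overlapped because PF replicate 2 was below HS replicate 3. The mean was 4.73 ± 0.51 in PF and 4.07 ± 0.26 in HS (SD, n = 4 each). The signal was weak, as only 33.2% of all clusters had a lower mean and both group means lay below every array median (5.27 to 5.44). The log2 fold change was -0.66 (SE 0.25, 95% confidence interval -1.24 to -0.08), which corresponds to a 1.58-fold lower signal in HS. The unadjusted p was 0.0296 and the adjusted p was 0.683 in limma, and an exact permutation of the arrays between the groups (two-sided, 70 assignments) gave p = 0.057, where 0.029 is the smallest value possible. FGF1 no longer met the thresholds without HS replicate 1 (-0.57), HS replicate 2 (-0.65), HS replicate 4 (-0.66), PF replicate 1 (-0.45) or PF replicate 3 (-0.62).

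FGF2 had the largest difference in means and also the largest spread. The PF arrays were at 7.74, 8.16, 6.29 and 5.90, and the HS arrays were at 6.16, 6.04, 5.999 and 5.84. PF replicates 1 and 2 were far above all HS arrays, PF replicate 3 was slightly above them, and PF replicate 4 lay within their range. The mean was 7.02 ± 1.10 in PF and 6.01 ± 0.13 in HS, so that the SD was 8.35 times larger in PF. The log2 fold change was -1.01 (SE 0.47, 95% confidence interval -2.10 to 0.07), a 2.02-fold lower signal in HS that did not pass the threshold on p (p = 0.064, adjusted p = 0.683, limma, and p = 0.14 in the exact permutation test). The value was -0.63 without PF replicate 2, whereas FGF2 met the thresholds without PF replicate 3 (-1.26) or PF replicate 4 (-1.39).

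FGF7 and FGF10, ligands of stromal origin, had signals near the low end of the array's range, where 10.4% and 9.60% of all clusters had a lower mean, respectively, and such signals say little about expression. FGF7 was at 4.47, 2.36, 2.45 and 2.37 in PF and at 2.30, 2.17, 2.36 and 2.47 in HS. PF replicate 1 was far above all other arrays, and the other 7 arrays lay between 2.17 and 2.47 without an order by group. The resulting log2 fold change was -0.59 (95% confidence interval -1.62 to 0.44, adjusted p = 0.737, limma) and was -0.07 without PF replicate 1. FGF10 was at 2.91, 2.53, 2.60 and 2.49 in PF and at 2.29, 2.53, 2.45 and 2.44 in HS. Here, too, PF replicate 1 was the highest, and PF replicates 2 and 4 were within the HS range. For FGF10 the log2 fold change was -0.21 (95% confidence interval -0.48 to 0.06, adjusted p = 0.692, limma), and it was -0.12 without PF replicate 1.

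FGF18, in cattle mainly a theca product, was at 6.07, 4.77, 5.01 and 4.72 in PF and at 4.79, 4.51, 5.07 and 4.56 in HS. Only PF replicate 1 was outside the HS range. Its log2 fold change of -0.41 (95% confidence interval -1.09 to 0.28, adjusted p = 0.731, limma) was -0.10 without that array. FGF9, the ligand known from GC, ran the other way. It was at 4.52, 5.87, 5.03 and 5.001 in PF and at 5.68, 5.59, 5.01 and 5.43 in HS, with PF replicate 1 as the lowest and PF replicate 2 as the highest of all arrays. The mean was 5.10 ± 0.56 in PF and 5.43 ± 0.30 in HS, and the log2 fold change was 0.33 (95% confidence interval -0.31 to 0.96, adjusted p = 0.753, limma). It was 0.13 without PF replicate 1 and 0.58 without PF replicate 2.

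**Figure D2:**
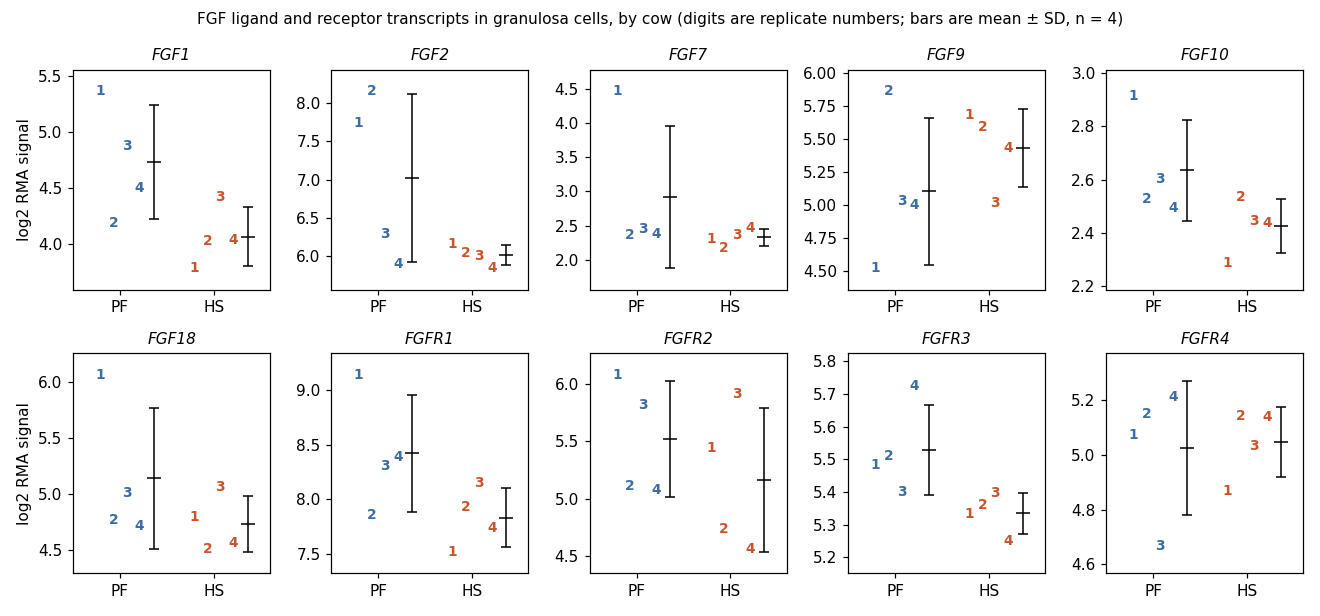
Log2 RMA signals (y axis, scaled per gene) of the 10 FGF members are plotted for the PF (blue) and HS (orange) cows, with digits for the replicate numbers and bars for mean ± SD (n = 4). PF replicate 1 is the highest array for FGF1, FGF7, FGF10, FGF18, FGFR1 and FGFR2 and the lowest for FGF9.

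Among the receptors, FGFR1 differed most. This receptor is widely expressed in mesenchymal cells and is the main partner of FGF2. Its signal was 9.14, 7.85, 8.31 and 8.39 in PF and 7.52, 7.94, 8.15 and 7.74 in HS. Of the PF arrays 3 were above all HS arrays, and PF replicate 2 was within the HS range. The mean was 8.42 ± 0.53 in PF and 7.83 ± 0.27 in HS, a log2 fold change of -0.59 (SE 0.26, 95% confidence interval -1.19 to 0.02). FGFR1 thus lay at the fold threshold (1.502-fold) but not under the threshold on p (p = 0.055, adjusted p = 0.683, limma, and p = 0.086 in the exact permutation test). It met both without HS replicate 3 (-0.69) or PF replicate 2 (-0.78), and its log2 fold change was -0.35 without PF replicate 1.

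FGFR3 was the only member whose groups did not overlap, while 4.64% of all clusters had groups without overlap. It was at 5.48, 5.51, 5.40 and 5.72 in PF and at 5.33, 5.36, 5.40 and 5.25 in HS. The separation was minimal, since the lowest PF array and the highest HS array both rounded to 5.40. FGFR3 had a log2 fold change of -0.19 (SE 0.10, 95% confidence interval -0.42 to 0.03), well under the fold threshold (p = 0.085, adjusted p = 0.683, limma), and the exact permutation test gave its smallest possible p (0.029). Over the members that test was run 10 times and was not adjusted.

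FGFR2, the receptor for FGF7 and FGF10 on epithelial cells, was at 6.08, 5.11, 5.81 and 5.07 in PF and at 5.44, 4.74, 5.91 and 4.57 in HS. In both groups the arrays formed a higher and a lower pair, PF replicates 1 and 3 and HS replicates 1 and 3 being the higher ones. FGFR2 was the only member with a larger SD in HS (0.63) than in PF (0.51). Its log2 fold change was -0.35 (95% confidence interval -1.15 to 0.44, adjusted p = 0.783, limma). It ranged from -0.60 without HS replicate 3 to -0.16 without HS replicate 4. The probes of this cluster do not tell which isoforms of the receptor were measured. FGFR4 was at 5.07, 5.15, 4.67 and 5.21 in PF and at 4.87, 5.14, 5.03 and 5.14 in HS, with PF replicate 3 as the lowest array. Its log2 fold change of 0.02 (95% confidence interval -0.30 to 0.34, adjusted p = 0.97, limma) took either sign depending on the array left out (-0.10 to 0.08).

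The PF cows varied more than the HS cows. The SD was larger in PF for 9 of the 10 members and for 75.5% of all clusters, and the median SD of the members was 0.52 in PF and 0.19 in HS, compared with 0.25 and 0.15 over all clusters. PF replicate 1 was the highest array for 6 of the 10 members, while it was the highest for 13.7% of all clusters. PF replicates 2 and 4 were the highest for 2 members each (FGF2 and FGF9, and FGFR3 and FGFR4, respectively), and for 17.5% and 9.6% of all clusters. No member was highest on an HS array, while HS replicates 1 to 4 were the highest for 12.8%, 6.5%, 3.1% and 10.7% of all clusters. Averaged over the 6 ligands, the log2 signal was 5.18, 4.64, 4.37 and 4.16 in PF replicates 1 to 4 and between 4.13 and 4.22 in HS. This average hides spread of single ligands in HS, such as 5.01 to 5.68 for FGF9, which ran against the other ligands. The median log2 fold change of the members was -0.14 without PF replicate 1 and -0.11 when both PF replicates 1 and 3 were left out.

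The order of the arrays by FGF1 and FGFR1 was set beside that by markers of other cell types. The 4 highest arrays for both genes were those of the fibroblast, endothelial, myeloid and lymphocyte lists. In the theca list HS replicate 2 stood in place of PF replicate 3. The mean of 13 fibroblast and smooth muscle markers was 9.58, 7.25, 8.73 and 8.65 in PF replicates 1 to 4 and 6.66, 7.64, 8.77 and 7.34 in HS replicates 1 to 4. All 13 had a lower mean in HS, against 54% of all clusters, and the difference of the list means was -0.95. Of the 13, 1 (TAGLN) was past the study's thresholds, against 0.627% of all clusters in that direction. The lowest value among the 13 was 3.94 (DPT in HS replicate 1), and the collagen gene COL1A1 was between 8.19 and 10.99. The mean of 11 endothelial markers was 8.42, 5.51, 7.22 and 7.32 in PF and 5.33, 6.19, 7.75 and 5.90 in HS, again with all 11 lower in HS and 0 past the thresholds. In both lists HS replicate 3 and PF replicates 1, 3 and 4 were the 4 highest arrays. The same 4 arrays were the highest for FGF1 and FGFR1, as for 4.81% of all clusters, and they were the lowest for FGF9, as for 4.01%. The mean of 4 theca markers was 9.13, 7.83, 7.32 and 8.94 in PF and 8.18, 8.63, 9.02 and 8.52 in HS. It was highest in PF replicates 1 and 4 and HS replicates 2 and 3, and lowest in PF replicate 3. The marker NR2F2 had the same 4 highest arrays as FGF1 and FGFR1, whereas CYP17A1, INSL3 and PTCH1 did not. Of these 4 markers, 2 had a higher and 2 a lower mean in HS, PTCH1 was past the study's thresholds (0.95, higher in HS), and the difference of the list means was 0.28. The part of these cells in the differences was not tested, and in bulk RNA fewer cells of a type cannot be told apart from less RNA per cell.

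**Figure D3:**
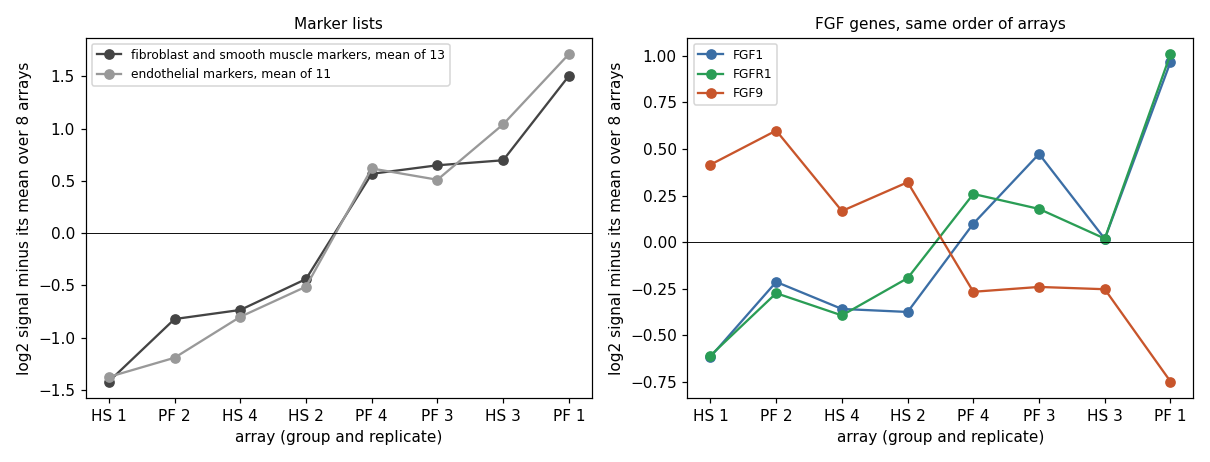
The arrays are ordered on both x axes by the mean of 13 fibroblast and smooth muscle markers, and the y axes give the log2 signal minus its mean over the 8 arrays, for marker list means (left) and for FGF1, FGFR1 and FGF9 (right). The 4 arrays on the right (PF 4, PF 3, HS 3 and PF 1) hold the highest values of FGF1 and FGFR1 and the lowest of FGF9.

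Leukocyte and GC markers were read in the same way. The mean of 9 myeloid markers was between 6.38 and 8.93 in PF and between 6.08 and 7.31 in HS, and that of 11 lymphocyte markers was between 5.12 and 6.07 and between 4.76 and 5.39, with every marker of both lists lower in HS. Past the study's thresholds were 1 myeloid and 3 lymphocyte markers. Of all clusters, 54% had a lower mean in HS, and 0.627% were past the thresholds in that direction. The 4 highest arrays of each list were HS replicate 3 and PF replicates 1, 3 and 4, as for FGF1 and FGFR1. The mean of 9 GC markers was between 7.15 and 7.89 in PF and between 7.88 and 9.13 in HS, with HS replicate 4 as the highest array. Of the 9, 8 were higher in HS and 0 past the thresholds. FGF2 did not share the array order of the fibroblast list, as PF replicate 2, the highest array for FGF2, ranked second lowest in fibroblast markers. Their part in the FGF differences was not tested.

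The genes with the array pattern most like that of FGF1 were NUPR1, a stress-responsive chromatin protein, MAMDC2 and OSTF1, taken from 19901 symbols. Pearson's r over the 8 arrays was 0.992 for NUPR1, 0.991 for MAMDC2 and 0.990 for OSTF1, and 0.983, 0.979 and 0.976 without PF replicate 1. NUPR1 was at 6.77, 5.30, 6.24 and 5.70 in PF and at 4.95, 5.21, 5.67 and 5.02 in HS. Like FGF1, it was highest in PF replicate 1 and lowest in HS replicate 1. In the fibroblast list, PF replicate 1 was the highest array for 12 of 13 genes and HS replicate 1 the lowest for 11. The 4 highest arrays of NUPR1, MAMDC2 and OSTF1 were also those of that list (HS replicate 3 and PF replicates 1, 3 and 4). The part of these cells in the likeness was not tested. For FGF2 the closest patterns were those of PSMA6, a proteasome subunit (r = 0.965, 0.950 without PF replicate 2), PAK1, a kinase of the cytoskeleton (0.962 and 0.935), and FAM65C (0.960 and 0.918). PAK1 was at 6.54, 7.07, 6.14 and 5.98 in PF and at 5.87, 5.91, 5.84 and 5.74 in HS, with PF replicate 2 as the highest array, as for FGF2. Unlike for FGF2, all PF arrays were above all HS arrays. These correlations describe the best of many candidates on arrays that share 1 normalization.

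Further genes of the FGF pathway were taken from 6 lists with 60 symbols, of which 58 were measured. The mean was higher in HS for 23 and lower for 35 (60.3%, against 54% of all clusters), and the median log2 fold change was -0.08. Only the proteoglycan GPC4 met the study's thresholds, and it was higher in HS, where 1.58% of all clusters were called in that direction. An unadjusted p under 0.05 was reached by GPC4 and by the adaptor SOS1, against 7.2% of all clusters, and no gene of the lists reached an adjusted p under 0.05 (smallest 0.641, limma). The count past the thresholds was 8 without PF replicate 2 (SDC2, SDC4, GPC3, GPC4, GPC5, GPC6, SPRY2 and DUSP6), 4 without PF replicate 4 (GPC3, GPC4, GPC6 and NR4A1) and 2 without HS replicate 3 (GPC4 and DUSP6). It was 1 (GPC4) when any other single array was left out.

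**Figure D4:**
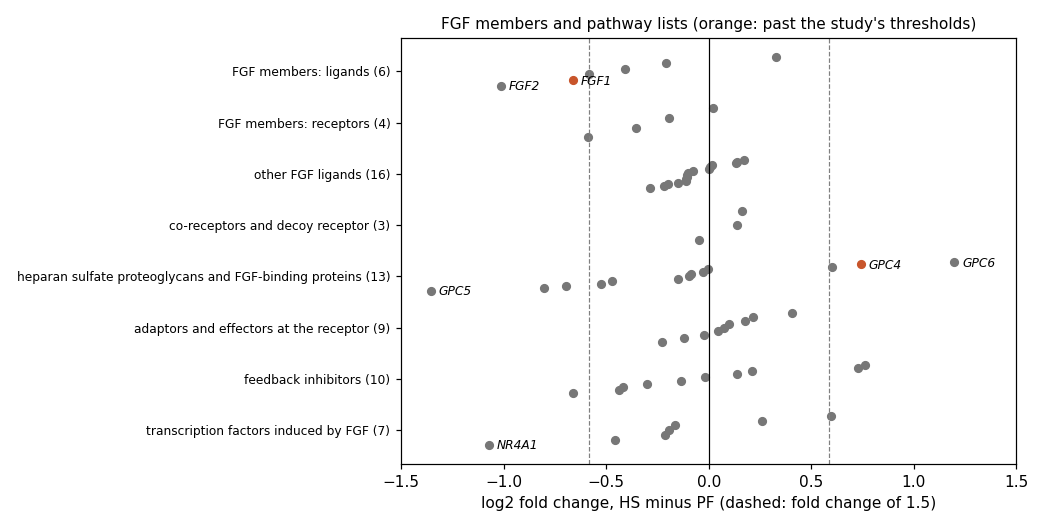
Each point is the log2 fold change of HS over PF (x axis) of a gene, grouped into the 10 FGF members and the 6 pathway lists, with the number of genes in parentheses and dashed lines at a fold change of 1.5. FGF1 and GPC4 (orange) met the study's thresholds by limma, and the widest spread is among the heparan sulfate proteoglycans, from -1.35 to 1.20.

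The other 16 FGF ligands stayed close to 0. Their log2 fold changes lay between -0.29 and 0.17 (6 higher, 10 lower, median -0.10), and none met the thresholds. The 2 named by rule were FGF12, an intracellular relative of the secreted FGFs (0.13, 95% confidence interval -0.40 to 0.66), and FGF3 (-0.22, -0.49 to 0.05). FGFRL1, a receptor without a kinase domain, was at 5.82, 6.46, 6.38 and 6.41 in PF and between 6.38 and 6.54 in HS, so that PF replicate 1 alone was low. FGFRL1 had a log2 fold change of 0.16 (95% confidence interval -0.19 to 0.51), or 0.010 without that array. KL, a klotho co-receptor for hormone-like FGFs, was at 0.14 (-0.24 to 0.51), or 0.018 without PF replicate 3.

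Of 13 heparan sulfate proteoglycans and FGF-binding proteins, 3 were higher and 10 lower in HS, while 54% of all clusters had a lower mean. Among those counted as lower, GPC1 (-0.0015) and GPC2 (-0.03) lay near 0. GPC4 is a glypican, a cell surface carrier of heparan sulfate chains that FGFs use as cofactor. It was at 6.13, 6.48, 5.98 and 6.48 in PF and at 6.57, 7.36, 7.05 and 7.04 in HS. All HS arrays were above all PF arrays, although HS replicate 1 exceeded the nearest PF arrays only slightly. Of the 58 pathway genes, GPC4 alone had groups without overlap, against 4.64% of all clusters. Its log2 fold change was 0.74 (SE 0.19, 95% confidence interval 0.30 to 1.18, p = 0.0043, adjusted p = 0.641, limma, and p = 0.029 in the exact permutation test). That exact p is the smallest value possible and was not adjusted over the pathway genes. GPC4 met the thresholds whichever single array was left out (0.62 to 0.89). It was at 0.53, short of the fold threshold, when both PF replicates 1 and 3 were left out.

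GPC6, another glypican, was at 8.06, 9.58, 6.85 and 9.26 in PF and at 9.66, 9.73, 9.63 and 9.52 in HS. The HS arrays lay within a narrow band, which PF replicate 2 also reached, and PF replicates 1 and 3 were far below it. The log2 fold change was 1.20 (SE 0.53, 95% confidence interval -0.02 to 2.42, p = 0.054, adjusted p = 0.683, limma, and p = 0.057 in the exact permutation test) and 0.67 without PF replicate 3. GPC3 and GPC5, which were chosen after their values were seen, showed the opposite pattern on the same arrays. GPC5 was at 6.13, 3.63, 6.80 and 4.69 in PF and at 3.53, 3.86, 4.54 and 3.92 in HS, a log2 fold change of -1.35 (95% confidence interval -2.80 to 0.09) that was -0.86 without PF replicate 3. GPC3 was at 6.74, 5.78, 7.26 and 5.91 in PF and at 5.54, 5.91, 5.89 and 5.55 in HS, a log2 fold change of -0.70 (95% confidence interval -1.43 to 0.03) that was -0.42 without PF replicate 3. With both PF replicates 1 and 3 left out, the values were -0.20 for GPC5 and -0.12 for GPC3. In both, PF replicates 1 and 3 were the high arrays and PF replicate 2 was within the HS range, and neither met the thresholds. The mean of the myeloid markers was also highest on PF replicates 1 and 3 (7.61 and 8.93), followed by HS replicate 3 (7.31) and PF replicate 4 (6.75). That of the fibroblast markers was highest on the same arrays (9.58, 8.73, 8.77 and 8.65). GPC5 had the same 4 highest arrays as both lists, at 4.54 in HS replicate 3 and 4.69 in PF replicate 4. GPC3 had HS replicate 2 (5.91) in place of HS replicate 3 (5.89). The part of these cells in the patterns was not tested.

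**Figure D5:**
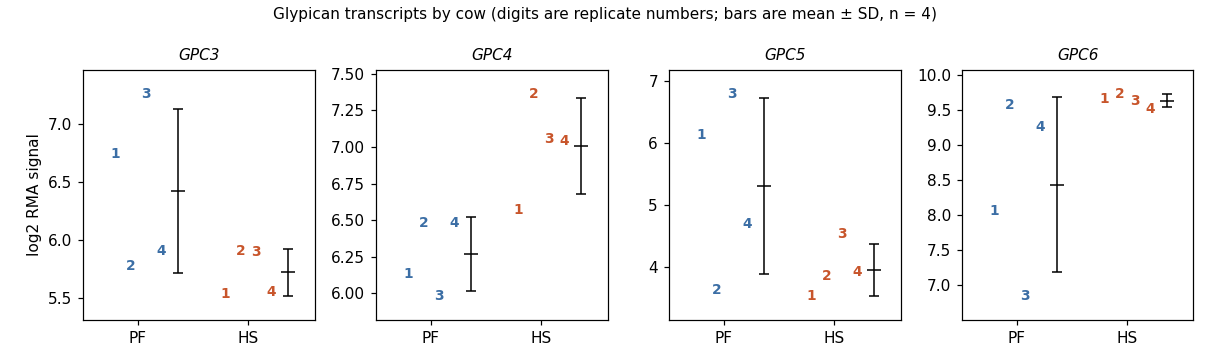
Log2 RMA signals (y axis, scaled per gene) of the glypicans GPC3, GPC4, GPC5 and GPC6 are plotted for PF (blue) and HS (orange) cows, with digits for the replicate numbers and bars for mean ± SD (n = 4). PF replicates 1 and 3 are the highest arrays for GPC3 and GPC5 and the lowest for GPC4 and GPC6.

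The syndecans are the other family of membrane heparan sulfate carriers. SDC4 was at 9.77, 10.9, 8.87 and 9.93 in PF and at 10.8, 10.7, 10.3 and 10.2 in HS, and its log2 fold change was 0.60 (95% confidence interval -0.29 to 1.49), or 0.27 without PF replicate 3 and 0.96 without PF replicate 2. SDC2 (chosen after its values were seen) had a log2 fold change of -0.80 (-1.79 to 0.18), or -0.53 without PF replicate 3. It was highest in PF replicates 3, 1 and 4 and HS replicate 3 (9.11, 8.92, 8.02 and 7.94), the 4 highest arrays of the fibroblast list. HSPG2 encodes perlecan, a heparan sulfate proteoglycan of basement membranes, and was also chosen after its values were seen. It was at 9.09, 7.36, 8.10 and 8.35 in PF and at 7.35, 7.46, 8.72 and 7.50 in HS. Its 4 highest arrays were the same as those of the fibroblast, endothelial, myeloid and lymphocyte lists. Its log2 fold change was -0.47 (95% confidence interval -1.42 to 0.47), and it was -0.18 without PF replicate 1 and -0.79 without HS replicate 3.

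The 9 adaptors and effectors at the receptor had log2 fold changes between -0.23 and 0.41 (6 higher, 3 lower), with 0 past the thresholds. The SD was larger in PF for all 9, and for 75.5% of all clusters. GRB2 was at 0.10 (95% confidence interval -0.17 to 0.36) and the phosphatase PTPN11 at -0.12 (-0.34 to 0.10). SOS1, the exchange factor that activates RAS, was at 7.81, 7.87, 7.81 and 8.33 in PF and at 8.43, 8.23, 8.27 and 8.52 in HS. Its PF arrays were below all HS arrays except for PF replicate 4. The log2 fold change was 0.41 (SE 0.14, 95% confidence interval 0.08 to 0.73, p = 0.020, adjusted p = 0.683, limma, and p = 0.086 in the exact permutation test), under the fold threshold, and SOS1 was chosen after its values were seen.

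Of 10 feedback inhibitors of FGF signaling, 4 were higher and 6 lower in HS, and 0 met the thresholds. Over all clusters, 54% had a lower mean in HS, so the split is close to that share. SPRY2, an inhibitor of RAS activation, was lowest in PF replicate 3. It was at 7.95, 9.23, 5.79 and 7.94 in PF and between 8.26 and 8.77 in HS, and its log2 fold change of 0.73 (95% confidence interval -0.69 to 2.14) was 0.08 without that array. SPRY4 (chosen after its values were seen) was likewise lowest there, at 4.81 against 6.75 to 7.32 in the other PF arrays, and its log2 fold change was 0.76, or 0.22 without PF replicate 3. SPRY3, also chosen after its values were seen, was highest there, at 8.87 against 6.09 to 7.01, and its log2 fold change was -0.44, or 0.15 without that array. DUSP6, the phosphatase of the MAP kinase ERK and likewise chosen after its values were seen, was at 9.08, 7.51, 8.18 and 7.84 in PF and at 7.11, 7.28, 8.14 and 7.43 in HS. Its 4 highest arrays were those of the fibroblast list (PF replicates 1, 3 and 4 and HS replicate 3). The log2 fold change of DUSP6 was -0.66 (95% confidence interval -1.47 to 0.15), and it was -0.35 without PF replicate 1 and -0.88 without HS replicate 3. CBL, a ubiquitin ligase for receptors, was at 0.14 (-0.08 to 0.35).

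Of 7 transcription factors that FGF signals can induce, 2 were higher and 5 lower in HS (median log2 fold change -0.19), and 0 met the thresholds. Over all clusters, 54% had a lower mean in HS. FOS was at 9.53, 9.84, 8.33 and 9.97 in PF and between 9.78 and 10.2 in HS, and its log2 fold change of 0.60 (95% confidence interval -0.17 to 1.37) was 0.23 without PF replicate 3. EGR1 was at -0.19 (-0.72 to 0.33). NR4A1, NR4A3 and ETV4 were chosen after their values were seen. The orphan receptor NR4A1 was at 9.01, 9.60, 7.76 and 6.14 in PF and at 6.92, 7.44, 8.15 and 5.70 in HS, a log2 fold change of -1.07 (95% confidence interval -2.87 to 0.72) that ranged from -1.74 without PF replicate 4 to -0.58 without PF replicate 2. PF replicates 1 and 2 were the highest arrays for NR4A1, as they were for FGF2, and also for NR4A3 (7.81 and 7.34, with 4.799 to 6.41 on the other arrays). ETV4, a common FGF target, was at 4.27 in PF replicate 3 and between 5.54 and 6.89 on the other 7 arrays, and its log2 fold change was 0.26, or -0.23 without PF replicate 3.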

How the data were processed

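The authors hybridized the RNA of each cow to a Bovine Gene 1.0 ST array and processed the arrays in the Affymetrix Expression Console by RMA with background correction, quantile normalization and summary per transcript cluster. As deposited, the values are log2 signals. Both deposited tables hold the same values (largest difference 1.8e-15), and the annotated one gave the gene symbols. Columns with the authors' own fold changes or p-values were not used. For a member symbol the cluster with the highest mean was taken, and all 10 had 1 cluster. Sequences and coordinates are not given here.

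The analysis used R 4.3.3 and limma 3.58.1 (lmFit and eBayes, HS minus PF, two-sided) on all 26773 clusters, with Benjamini-Hochberg adjustment over all of them and no filter on weak signals. Exact permutation tests used all 70 assignments of 4 against 4 arrays. The procedure was tested on simulated data. The arrays are of separate cows, and their number limits the precision.

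The members and lists were chosen with earlier results of these data known. Named in the text are all members, pathway genes past the study's thresholds, the 2 genes with the highest mean of each pathway list and, for FGF1 and FGF2, the 3 symbols with the highest Pearson r. Other names are marked as chosen after their values were seen, apart from those given as calls of an alternative or as markers of cell types or of the LH response. The symbols FGFBP2, ANOS1 and, among myeloid markers, MRC1 could not be matched on the array.

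The alternatives were the methods' t-test, Tukey's biweight averages (c = 5, epsilon 0.0001), array weights, eBayes with a trend, only clusters with a mean log2 of at least 5, quantile normalization once more, array medians subtracted, the other deposited table, the mean of all clusters of a symbol, a block for the replicate number, leaving out each array in turn, and both PF replicates 1 and 3 left out. The correlations without the highest array were added after seeing the data.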

Additional observations from a re-analysis of the deposited data

Results flagged for a closer look

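A single array lay far from the rest of its group in 4 of 68 groups of 4 arrays tested (10 members and the named pathway genes, each in HS and PF), where chance flags about 1 in 20 groups. FGF7 was at 4.47 in PF replicate 1, and the next PF array was at 2.45, a gap of 0.959 of the group's range (Dixon's criterion at the 95% level). It was the only such case among the 20 groups of the FGF members. FGFRL1 was at 5.82 in PF replicate 1, the lowest, and the next array was at 6.38 (0.871 of the range). SOS1 was at 8.33 in PF replicate 4, the highest, and the next was at 7.87 (0.894). HSPG2 was at 8.72 in HS replicate 3, the highest, and the next was at 7.50 (0.896). In the HS group, HS replicate 3 was also highest for the means of the fibroblast (8.77), endothelial (7.75) and theca (9.02) markers. The same held for the myeloid (7.31) and lymphocyte (5.39) markers.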

How the results depend on the processing

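The median log2 fold change of the members kept its sign throughout (-0.56 without HS replicate 3 to -0.11 with both PF replicates 1 and 3 left out). The count of members past the thresholds, 1, was 0 by the methods' t-test (alone or run with biweight averages), with array weights, with a mean log2 of at least 5 (where 6 members were tested and FGF1 was not) and with both PF replicates 1 and 3 left out. It was 2 with quantile normalization once more (FGF1 and FGFR1) and ranged from 0 to 2 when 1 array was left out. The pathway count, 1, was 2 with array medians subtracted (GPC4 and GPC6), 0 with both PF arrays left out, and 1 to 8 when 1 array was left out. Over all clusters, 591 became 355 by the methods' t-test, 352 by that test with biweight averages and 333 to 1566 when 1 array was left out (333 without HS replicate 1 and 1566 without PF replicate 2). Subtracting array medians moved the share of calls higher in HS from 71.6% to 83.9%, with the median of all clusters at 0.04, and 8 members stayed lower. With the replicate number as a block, 2 members (FGF1 and FGF2), 2 pathway genes (GPC4 and GPC5) and 669 clusters met the thresholds. The numbers only name the cows, and the correlation of same-numbered deviations was -0.27 to 0.21. No member reached an adjusted p under 0.05 in any alternative, and limma called 3 clusters in all without PF replicate 3.

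Signs turned as follows, and the cause was not tested. With both PF replicates 1 and 3 left out, FGF9 was at -0.0033, FGFR2 at 0.073, FGFR4 at -0.13, FGFRL1 at -0.0089, GRB2 at -0.016, SPRY2 at -0.13, SPRY3 at 0.12 and ETV4 at -0.57. With biweight averages FGFR4 was at -0.048, FGFRL1 at -0.022, KL at -0.093, EGR1 at 0.094 and SPRY3 also at 0.094. With array weights FGFR4 was at -0.10, ETV4 at -0.16 and NR4A3 at 0.24. When 1 array was left out, FGFR4 ranged from -0.10 to 0.082, FGF12 from -0.064 to 0.30, EGR1 from -0.32 to 0.039, ETV4 from -0.23 to 0.65, NR4A3 from -0.99 to 0.010 and SPRY3 from -0.78 to 0.15. FGF1 ranged from -0.85 to -0.28 over the alternatives. The other deposited table and the mean of all clusters of a symbol could not change a member, since the values are the same and each member has 1 cluster. Signals near the low end (FGF7, FGF10) limit what the array can show.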
